A study of Mus musculus with 14 samples.

Results

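The epithelial identity regulators described here are 9 genes, Esrp1, Esrp2, Ovol1, Grhl1, Grhl2, Grhl3, Trp63, Klf4 and Klf5, chosen by gene symbol among the 23284 genes listed for each library. All 9 were found in both tables of expression values. They were followed in EpH4 cells, a mouse mammary gland epithelial cell line, and in EpRas cells, the derivative of EpH4 transformed with H-RasG12V. Each line was kept for 48 h without or with TGF-β (1 ng/ml), with 2 libraries for each of these 4 groups. A further 6 libraries came from EpRas cells that had received either a negative control siRNA, siNC, or siRNAs to knock down the ETS factors Etv4 and Etv5 together, in 2 sets called siEtv4/5_1 and siEtv4/5_2 (the first and second pair), each with and without TGF-β, and with 1 library for each condition. EpH4 cells were grown in 10% and EpRas cells in 4% fetal bovine serum, so that transformation and serum cannot be told apart, and each line was represented by a single cell line. All values are FPKM, in which the fragments of a gene are divided by the length of its exons and by the total of the library, a scale on which genes of different length can be compared.

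Epithelial cells keep their character through a small number of RNA-binding proteins and transcription factors. Esrp1 and Esrp2 are splicing factors that direct epithelial exon choice in transcripts such as those of Fgfr2, Cd44 and Enah, and their loss is a known feature of epithelial-mesenchymal transition (EMT). Grhl1, Grhl2 and Grhl3 are grainyhead-like factors that activate genes of cell junctions, Ovol1 is a zinc finger repressor of mesenchymal genes, Trp63 encodes p63, which marks basal and myoepithelial cells of the mammary gland, and Klf4 and Klf5 are Krüppel-like factors that bind GC-rich DNA and act in proliferation and differentiation of epithelia.

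The labelled cell type was read against keratins. The simple epithelial keratins Krt8 and Krt18 lay at 561 FPKM or above in every library, whereas the basal keratins Krt5 and Krt15 did not exceed 0.443 FPKM in any library and were listed at 0 in most, also where Trp63 was expressed. Other markers of the same kinds went another way. In the untransfected libraries the basal keratin Krt14 lay at 327 to 851 FPKM in EpH4 and 62.2 to 115 FPKM in EpRas cells, and Krt17 at 17.0 to 34.6 FPKM in EpH4 and 0 to 0.758 FPKM in EpRas cells. The simple epithelial keratin Krt19 was listed at 0 in all 4 EpH4 libraries and lay at 17.1 to 37.4 FPKM in EpRas cells, and the luminal marker Muc1 did not exceed 0.312 FPKM in the untransfected libraries. The fibroblast marker Thy1 was listed at 0 throughout. The summed level of 7 fibroblast markers was 1.62 to 2.00 FPKM in untreated EpH4 cells, 9.31 to 10.5 FPKM in EpH4 cells with TGF-β, 9.64 to 11.3 FPKM in untreated EpRas cells and 6.75 to 7.93 FPKM in EpRas cells with TGF-β, nearly all of it Pdgfra and Pdgfrb, and their part in the results was not tested. In bulk RNA, fewer cells of a type and less RNA per cell cannot be told apart. The depth of the untransfected libraries, read from the steps between low FPKM values, ranged from 0.609 to 1.36 relative to the first EpH4 library, and a gene at 5 FPKM rested on a median of 41.0 to 91.2 reads per library.

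The members fell into 3 ranges of expression. Esrp1 was the most abundant in all but the untreated EpRas libraries, where Klf4 was above it, and lay between 14.5 and 62.6 FPKM in the 8 untransfected libraries. Klf4 ranged from 5.73 to 28.1 FPKM, Esrp2 from 4.24 to 14.4 FPKM, Grhl2 from 3.05 to 13.6 FPKM and Klf5 from 3.96 to 13.1 FPKM. Trp63 spanned 0 to 8.60 FPKM. Ovol1, Grhl1 and Grhl3 never exceeded 3.02, 1.46 and 0.275 FPKM. The test was applied where the highest of the 8 values was 5 FPKM or more, which held for 6 of the 9 members (Esrp1, Esrp2, Grhl2, Trp63, Klf4 and Klf5). Of these 6, Trp63 passed only through EpH4 cells, the line in which it was high, so that it had to differ between the lines. Here and below, the lines in which a gene reached 5 FPKM are those of the untransfected libraries, and any library of a line, in either condition, was enough. Trp63 is left out of the counts between the lines and described by its values.

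**Figure D1:**
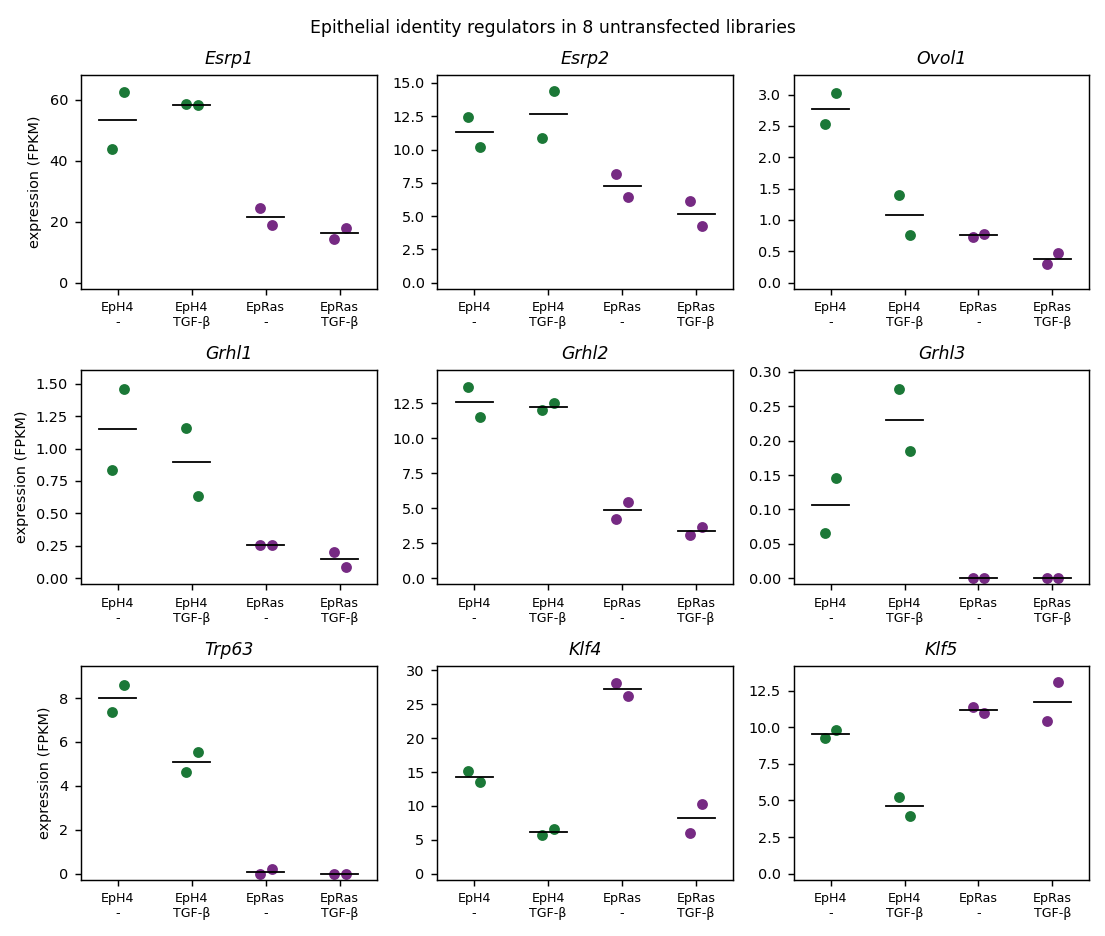
Expression (FPKM, linear axis) of the 9 regulators in the 8 untransfected libraries. Each point is 1 library, horizontal bars are the mean of 2 libraries, and green and purple mark EpH4 and EpRas cells. Esrp1 and Grhl2 separate by cell line, Klf4 falls with TGF-β in both lines, Klf5 falls in EpH4 cells, and Trp63 lies between 4.64 and 8.60 FPKM in EpH4 and between 0 and 0.197 FPKM in EpRas cells.

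The first question was how the regulators differed between the transformed and the parental line. In the absence of TGF-β, Esrp1 and Grhl2 were lower in EpRas than in EpH4 cells, and Klf4 was higher, by limma's moderated test on log2(FPKM + 1) with Benjamini-Hochberg adjustment over 9100 genes. Thus 2 of the 5 members that reached 5 FPKM in both lines were lower, beside 9.11% of all tested genes, and 1 was higher, beside 8.45%. Shares of all tested genes, here and below, include genes that reached 5 FPKM in 1 line only. Counts of members and list genes that reached it in both lines leave such genes out, so that the sets are unlike. In the presence of TGF-β, 3 of the 5 were lower (Esrp1, Esrp2 and Grhl2), beside 12.3% of tested genes, and 1 was higher (Klf5), beside 8.92%. The median log2 fold change of the 5 members was -0.57 without and -1.15 with TGF-β, while that of all tested genes was 0.00 and -0.01.

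Esrp1 (chr4:11332038-11386783 in the table, mm10, minus strand) was measured at 43.8 and 62.6 FPKM in the 2 untreated EpH4 libraries and at 24.5 and 18.9 FPKM in untreated EpRas cells. In the presence of TGF-β, 58.5 and 58.4 FPKM were measured in EpH4 and 14.5 and 18.0 FPKM in EpRas cells. The lines did not overlap in either condition, which was the case for 61% of all tested genes without and 63% with TGF-β. EpRas against EpH4 gave a log2 fold change of -1.25 ± 0.22 (SE, adjusted p = 0.00958) without and -1.79 ± 0.22 (adjusted p = 0.00152) with TGF-β. Without TGF-β the call was lost when the second untreated EpH4 library (adjusted p = 0.0571) or the second untreated EpRas library (adjusted p = 0.0634) was left out, over a range of 0.00889 to 0.0634 across the 8 libraries left out in turn.

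Esrp2 (chr8:106131183-106138722) was expressed at a lower level than Esrp1 in all libraries. It was at 12.4 and 10.2 FPKM in untreated EpH4, 8.14 and 6.45 FPKM in untreated EpRas, 10.9 and 14.4 FPKM in treated EpH4, and 6.10 and 4.24 FPKM in treated EpRas cells. The EpRas libraries lay under the EpH4 libraries in both conditions. The difference was -0.57 ± 0.23 (log2 fold change, adjusted p = 0.131) without TGF-β, where it did not pass, and -1.15 ± 0.23 (adjusted p = 0.0110) with TGF-β, where it did. The latter call was lost without the second TGF-β-treated EpH4 library (adjusted p = 0.0909). Esrp2 overlaps Nfatc3 on the other strand in the annotation, and Esrp1, Ovol1, Grhl2 and Trp63 overlap annotated noncoding genes or pseudogenes. Whether counting used the strand is not given in the sources used here.

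Of the grainyhead-like genes, Grhl2 (chr15:37233036-37363568) was the one expressed at an appreciable level. Its values were 13.6 and 11.5 FPKM in untreated EpH4, 4.24 and 5.45 FPKM in untreated EpRas, 12.0 and 12.5 FPKM in treated EpH4, and 3.05 and 3.66 FPKM in treated EpRas cells. No EpRas library came near an EpH4 library. Grhl2 counts as reaching 5 FPKM in both lines only through the second untreated EpRas library, at 5.45 FPKM. The log2 fold change was -1.22 ± 0.17 (adjusted p = 0.00386) without and -1.61 ± 0.17 (adjusted p = 0.000763) with TGF-β, which in means of FPKM was 2.60-fold and 3.66-fold lower in EpRas cells, and both calls held in every alternative that kept the gene and with each library left out. These levels rested on 68 to 172 reads per EpRas library and 242 to 435 reads per EpH4 library.

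The other grainyhead-like genes were under the filter. Grhl1 (chr12:24572287-24617391) was at 0.834 and 1.46 FPKM in untreated and 1.16 and 0.631 FPKM in treated EpH4 cells, against 0.257, 0.259, 0.205 and 0.0881 FPKM in the 4 EpRas libraries. Grhl3 (chr4:135541888-135573620), a factor of barrier formation in skin, had 1 to 3 reads in each EpH4 library and was listed at 0 in all 4 EpRas libraries. Ovol1 (chr19:5549137-5560575) was at 2.52 and 3.02 FPKM in untreated EpH4, 1.40 and 0.764 FPKM in treated EpH4, 0.725 and 0.779 FPKM in untreated EpRas and 0.294 and 0.473 FPKM in treated EpRas cells. Each of the 3 had its lowest values in EpRas libraries. In a fit without the filter on low values, over 15244 genes, Ovol1 was lower in untreated EpRas cells (log2 fold change -1.10 ± 0.17, adjusted p = 0.0116), and the other comparisons of the lines for these 3 genes had adjusted p of 0.0532 or above. In that fit Ovol1 also fell with TGF-β in EpH4 cells (-0.87 ± 0.17, adjusted p = 0.0379).

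Trp63 (chr16:25683765-25892088) was at 7.37 and 8.60 FPKM in untreated EpH4 and, once treated, at 4.64 and 5.52 FPKM. It was listed at 0 in 3 of 4 EpRas libraries and at 0.197 FPKM in the second untreated one. The lines stood apart in both conditions. No fold and no test of Trp63 between the lines are given in either condition, nor is it counted in the test of the difference of the TGF-β effects, because it passed the filter only where it was high.

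The Krüppel-like members did not follow this pattern. Klf4 (chr4:55527137-55532475) was at 15.1 and 13.5 FPKM in untreated EpH4 cells and at 28.1 and 26.3 FPKM in untreated EpRas cells, without overlap. Its log2 fold change was 0.88 ± 0.23 (adjusted p = 0.0404). This call was lost when any of the 4 untreated libraries or either TGF-β-treated EpH4 library was left out (adjusted p of 0.0796 to 0.171), with a pseudocount of 0.1 FPKM (0.0551) and with no filter (0.0560). With the replicate number as a block, Klf4 was also not called between the untreated lines (adjusted p = 0.0643). In the presence of TGF-β, Klf4 was at 5.73 and 6.58 FPKM in EpH4 and 6.0 and 10.3 FPKM in EpRas cells. These groups overlapped, and the log2 fold change was 0.32 ± 0.23 (adjusted p = 0.372).

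Klf5 (chr14:99298691-99313409) was alike in level in the untreated lines, at 9.28 and 9.81 FPKM in EpH4 and 11.4 and 10.9 FPKM in EpRas (log2 fold change 0.21 ± 0.18, 95% interval -0.21 to 0.63, adjusted p = 0.476). After treatment Klf5 stood at 5.27 and 3.96 FPKM in EpH4 and at 10.4 and 13.1 FPKM in EpRas cells. The difference of 1.19 ± 0.18 (log2 fold change, adjusted p = 0.00377) was 2.55-fold in means of FPKM. The call held in every alternative that kept the gene and with each library left out.

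**Figure D2:**
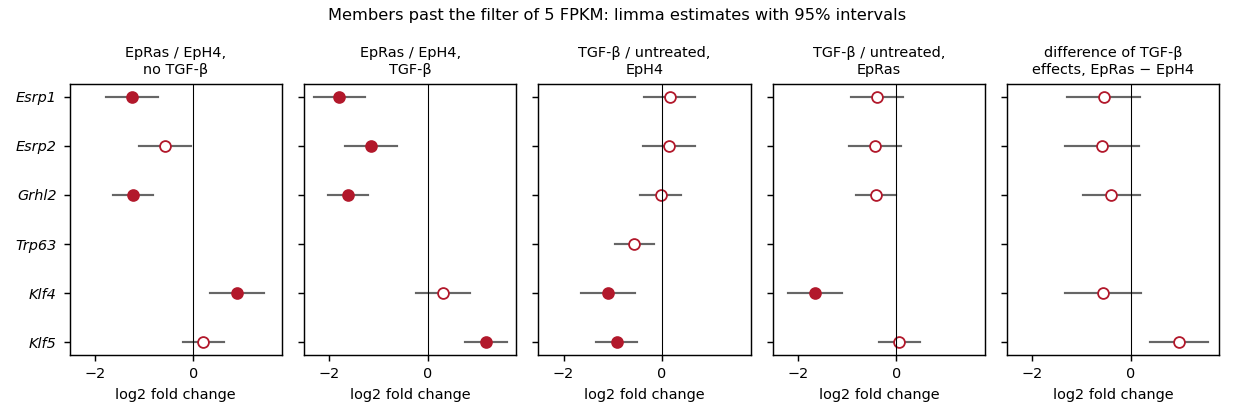
Log2 fold changes (limma, log2(FPKM + 1) scale) of the 6 tested regulators in 4 comparisons and in the difference of the TGF-β effects. Points are estimates, lines are 95% intervals, and filled points have an adjusted p under 0.05. Esrp1 and Grhl2 are lower in EpRas cells in both conditions, Trp63 is drawn only for TGF-β in EpH4 cells because it passed the filter only through that line, Klf4 is lower with TGF-β in both lines, and no point is filled in the last panel.

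The second question was how TGF-β changed the regulators within a line. In EpH4 cells 2 of the 6 tested members, Klf4 and Klf5, fell, beside 2.91% of tested genes that fell and 6.48% that rose. In EpRas cells 1 of the 5 members other than Trp63, Klf4, fell, beside 1.92% that fell and 1.9% that rose. Klf4 was therefore the member called in both lines.

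For Klf4 the libraries named above separated by treatment, from 15.1 and 13.5 to 5.73 and 6.58 FPKM in EpH4 and from 28.1 and 26.3 to 6.0 and 10.3 FPKM in EpRas cells (60.6% of tested genes separated so in EpH4 and 39.4% in EpRas cells). The change on the log2 scale was -1.10 ± 0.23 (adjusted p = 0.0290) in EpH4 and -1.66 ± 0.23 (adjusted p = 0.00983) in EpRas cells, or 2.32-fold and 3.33-fold lower in means of FPKM. The treated libraries held 69 and 118 reads of Klf4 in EpH4 and 86 and 115 reads in EpRas cells. The EpH4 call was lost with the replicate number as a block. With single libraries left out, the sizes ran from -1.18 to -1.01 in EpH4 and from -2.01 to -1.31 in EpRas cells, and the calls did not always hold. In EpH4 cells the call was lost without any of the 4 EpH4 libraries or either untreated EpRas library, with adjusted p up to 0.205. In EpRas cells it was lost without the first (0.0922) or the second untreated EpRas library (0.0620) and in a fit of the EpRas libraries alone (0.128).

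Klf5 fell in EpH4 cells by 0.92 ± 0.18 on the log2 scale (adjusted p = 0.0216). In EpRas cells its change was 0.06 ± 0.18 (adjusted p = 0.918). The difference between these effects, 0.98 ± 0.25, had an unadjusted p of 0.00574 and an adjusted p of 0.209, so that a different response of the lines was not shown. The EpH4 call was lost without any of the 4 EpH4 libraries (adjusted p of 0.0701 to 0.172). With the replicate number as a block, Klf5 was not called in EpH4 cells either. None of the 5 members that reached 5 FPKM in both lines passed the limma test of the difference of the TGF-β effects, beside 0.802% of all genes tested, and Klf5 was the only one with an unadjusted p under 0.05.

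The splicing factors and Grhl2 did not pass the test of TGF-β in either line. In EpH4 cells the log2 fold changes were 0.15 ± 0.22 for Esrp1 (95% interval -0.37 to 0.68, adjusted p = 0.730), 0.14 ± 0.23 for Esrp2 (-0.39 to 0.67, adjusted p = 0.751) and -0.03 ± 0.17 for Grhl2 (-0.44 to 0.38, adjusted p = 0.95), each with overlapping groups. In EpRas cells all 3 were lower in both treated libraries than in both untreated ones, with values of -0.39 ± 0.22 for Esrp1 (adjusted p = 0.458), -0.44 ± 0.23 for Esrp2 (adjusted p = 0.419) and -0.42 ± 0.17 for Grhl2 (adjusted p = 0.299). Groups that do not overlap were common among all genes in this comparison (39.4%). Trp63 in EpH4 cells had a log2 fold change of -0.56 ± 0.17 (adjusted p = 0.0856).

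Family members of the regulators and other epithelial regulators were read from fixed lists. Ovol2, the relative of Ovol1 that represses mesenchymal genes, was expressed at 8.36 to 11.6 FPKM in EpH4 and 1.81 to 4.98 FPKM in EpRas cells, and so reached 5 FPKM only in EpH4 libraries. Of the 9 relatives that did so in both lines, Ubp1, a CP2-like relative of the grainyhead genes, was lower without TGF-β (log2 fold change -0.71, beside 9.11% of all tested genes) and Klf13 was higher without (0.89, beside 8.45%) and with TGF-β (0.62, beside 8.92%). Without TGF-β, Ubp1, Klf13 or both lost the call when the second untreated library of either line was left out. Klf6 rose with TGF-β in EpH4 (1.01 ± 0.17, adjusted p = 0.0119) and in EpRas cells (1.11 ± 0.17, adjusted p = 0.0144), beside 6.48% and 1.9% of all tested genes. Klf13 also rose with TGF-β in EpH4 cells (0.76).

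Among 8 tested other epithelial regulators, 3 were lower (9.11% of all tested genes) and 1 higher (8.45%) in untreated EpRas cells, and with TGF-β 5 were lower (12.3%) and 3 not called (5 had an unadjusted p under 0.05). The calls without TGF-β did not all hold when the second untreated EpH4 library or either untreated EpRas library was left out. The ETS factor Elf3 (log2 fold change -1.28 and -1.62) and the homeobox gene Pitx1 (-2.19 ± 0.59 and -2.37 ± 0.59) were among those lower in both conditions. Gata3, a factor of luminal mammary cells, was lower with TGF-β (-1.21), as was the RNA-binding protein Rbm47 (-0.69), and the splicing factor Rbfox2 was higher without TGF-β (0.91). In EpRas cells, TGF-β lowered Gata3 (-1.0), Elf3 (-0.98) and Rbm47 (-0.85), beside 1.92% of all tested genes, and in EpH4 cells it raised Rbfox2 (0.64), beside 6.48%. Of the EMT transcription factors, 3 reached 5 FPKM in both lines. Among these Prrx1 was lower in EpRas cells without TGF-β (-0.77, beside 9.11% of all tested genes), and Twist1 was higher with TGF-β (0.68, beside 8.92%). The Prrx1 call was lost when the second untreated EpH4 library was left out. Snai3 and Twist2 reached 5 FPKM only in untreated EpH4 libraries and are given by their values, with Snai3 at 3.2 to 5.34 FPKM in EpH4 and 0.143 to 0.604 FPKM in EpRas cells and Twist2 at 2.12 to 7.01 FPKM in EpH4 and 0 to 0.503 FPKM in EpRas cells. Zeb1 and Zeb2, repressors of Cdh1, were under the filter and higher in each of the 4 untransfected EpRas libraries than in any EpH4 library, at 0 to 0.538 FPKM in EpH4 against 2.01 to 3.5 FPKM in EpRas cells for Zeb1 and at 0.310 to 0.997 FPKM against 1.29 to 2.87 FPKM for Zeb2. Within a single condition, the lines did not overlap for 61% of all tested genes without and 63% with TGF-β. In EpH4 cells TGF-β raised Snai1 (1.64, beside 6.48% of all tested genes) and lowered Prrx1 (-0.98, beside 2.91%). In EpRas cells no member of this list passed (2 had an unadjusted p under 0.05).

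Genes of the epithelial barrier that are known targets or companions of the Grhl, Ovol and Esrp genes were lower in EpRas cells. Of the 17 genes of this list that reached 5 FPKM in both lines, 11 were lower and 6 were not called without TGF-β (median log2 fold change -0.98, beside 9.11% of all tested genes called lower), and all 17 were lower with TGF-β (median -1.69, beside 12.3%). Marveld2 reached 5 FPKM only in EpH4 libraries, and Prom2 only in the untreated ones, at 6.10 and 6.37 FPKM, with 2.32 and 2.77 FPKM after TGF-β. Among the larger differences without TGF-β were those of Ap1m2 (-2.10 ± 0.28), an adaptor of epithelial protein sorting, and the claudins Cldn4 (-1.80 ± 0.40) and Cldn7 (-1.73 ± 0.15), components of tight junctions. With TGF-β, those of Ap1m2 (-3.10 ± 0.28), Cldn4 (-2.78 ± 0.40) and Epcam (-2.42 ± 0.38), an epithelial adhesion molecule, were among the larger ones. All 17 were also called with TGF-β under upper-quartile scaling and under quantile normalization. Within a line, TGF-β changed 1 of the 17 in EpH4 cells, where Cdh1 (E-cadherin) rose (0.79, beside 6.48% of all tested genes), and 2 in EpRas cells, where Marveld3 (-1.62) and Rab25 (-0.87) fell (beside 1.92%).

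Basal genes known as targets of p63 lay on both sides. Of the 12 genes that reached 5 FPKM in both lines, 3 were higher (8.45% of all tested genes) and 1 lower (9.11%) in untreated EpRas cells, where Trp63 was at or near 0. With Krt17 counted, 5 of 13 tested genes were called, and 3 with the replicate number as a block. Fewer were also called when any untreated library or either TGF-β-treated EpH4 library was left out. The basal keratin Krt14 (-1.69 ± 0.16) was lower, whereas the integrins Itga6 (1.28 ± 0.18), Itgb4 (0.77 ± 0.20) and Itga3 (0.61 ± 0.17) were higher. With TGF-β, Krt14 (-3.67) and Pkp1 (-1.90), a desmosomal plaque protein, were among 3 genes lower in EpRas cells (12.3% of all tested genes), and Itga6 (1.34) was among 2 that were higher (8.92%). Krt17, whose values stand above, reached 5 FPKM only in EpH4 libraries among the untransfected ones and is not counted. TGF-β raised 8 of the 12 genes in EpH4 cells (6.48% of all tested genes rose), where Trp63 itself was lower in both treated libraries, with Sfn (3.32 ± 0.30), Fermt1 (2.60 ± 0.16), Lamb3 (1.92 ± 0.14) and Lama3 (1.82 ± 0.16) in the lead. In EpRas cells it raised 5 (1.9% of all tested genes), among them Fermt1 (2.46 ± 0.16), Lamb3 (1.80 ± 0.14) and Sfn (1.55 ± 0.30), and lowered Krt14 (-0.78).

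**Figure D3:**
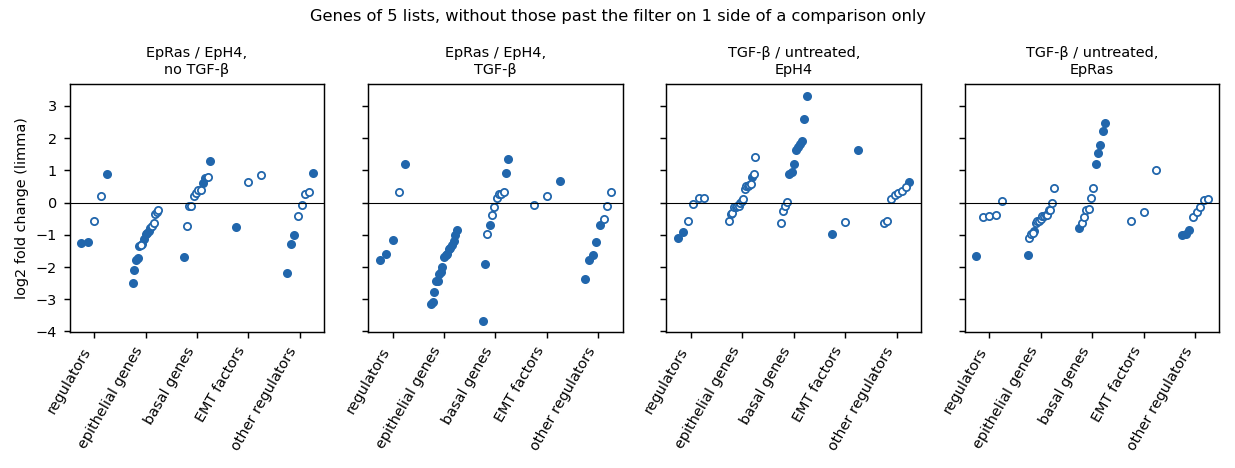
Log2 fold changes (limma) of the tested genes of 5 lists in 4 comparisons, with the genes of a list in order of their value. Genes that passed the filter on 1 side of a comparison only, or only in the line it is not about, are not drawn in it. A side here is a line over both conditions, or a condition over both lines. A gene drawn can thus be under 5 FPKM in a group compared, as Marveld3 was in treated EpRas cells (1.29 and 2.05 FPKM). Filled points have an adjusted p under 0.05. The 17 epithelial barrier genes drawn between the lines with TGF-β lie below 0, while the basal genes lie on both sides of 0 between the lines and mostly above 0 with TGF-β.

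Genes whose transcripts hold exons regulated by the Esrp proteins were read at the level of the gene, which does not show exon choice. Of the 8 that reached 5 FPKM in both lines, Cd44 was higher in EpRas cells without (1.16 ± 0.21, beside 8.45% of all tested genes) and with TGF-β (1.41 ± 0.21, beside 8.92%). Fgfr1 was higher in untreated EpRas cells (0.96) and rose with TGF-β in EpH4 cells (1.04, beside 6.48%). Between the untreated lines, Cd44, Fgfr1 or both lost the call when the first untreated EpH4 library or either untreated EpRas library was left out. Fgfr2 reached 5 FPKM only in the untreated EpH4 libraries, at 9.13 and 9.85 FPKM, and lay at 3.97 and 3.92 FPKM in EpH4 cells after treatment and at 1.23 to 2.31 FPKM in EpRas cells.

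The profile of each tested member over the 8 untransfected libraries was set beside those of all tested genes, as the root mean square difference of log2(FPKM + 1) after centring each gene on its own mean. The genes nearest to Esrp1 were Ppp1r3f (0.11), the tight junction gene Cldn3 (0.12) and Plxna1 (0.14). Nearest to Esrp2 were Tspan3, Ndufa1 and Srd5a3 (0.15 each), and nearest to Grhl2 were Slain1, Samd10 (0.11 each) and Tm7sf3 (0.12). Trp63 was closest to Cgref1 (0.18) and Sirpa (0.19), Klf4 to Tinagl1 (0.20), Amigo2 (0.21) and Ephb6 (0.24), and Klf5 to Mettl5 (0.07), Nle1 (0.12) and Coq4 (0.12). These are descriptions over 8 libraries of 4 groups, and 5% of all tested genes lay within 0.33 of Esrp2 and within 0.34 of Klf5.

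The sequence before the transcription start was examined for motifs in the RefSeq promoter entries (GRCm38.p6) of Klf4, Grhl1 and Grhl3. The 250 bases before the start of Klf4 are printed because this was the member called with TGF-β in both lines. They lie at chr4:55532476-55532725 on the minus strand, and capitals mark the GC box letters GGGGCGGG or their reverse complement CCCGCCCC.
Klf4: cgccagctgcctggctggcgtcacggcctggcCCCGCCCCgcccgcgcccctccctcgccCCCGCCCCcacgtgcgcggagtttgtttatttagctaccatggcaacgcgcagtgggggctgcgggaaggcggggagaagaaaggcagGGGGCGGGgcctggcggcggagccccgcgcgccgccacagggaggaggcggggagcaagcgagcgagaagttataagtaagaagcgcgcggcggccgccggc
The stretch was 74.0% G or C and held the GC box 3 times, a motif present on either strand in 15% of 32851 promoter stretches of the same length. The other letters searched on both strands were CAGGTG, an E-box (17.2% of promoters), CCGGAA, the core of ETS sites (12%), TGANTCA, an AP-1 site (6.75%), and the grainyhead motifs AACCNGTT (1.79%) and AACCGGTT (0.116%), of which the second is contained in the first. None of these was in the Klf4 stretch. The Grhl3 stretch held the E-box letters once and none of the others, and neither of the 2 Grhl1 stretches held any of the 6 motifs. A match in letters is not a binding site, and the absence of a match says nothing about a factor.

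The third question was how the regulators stood after knockdown of Etv4 and Etv5 in EpRas cells. Each condition had 1 library, and no test was made. Values are compared as ratios of FPKM to siNC in the same condition, with exact binomial 95% intervals of the recovered read counts that cover counting error only. These libraries were quantified separately from the untransfected ones, so levels are not compared between them. The intervals Cuffdiff gives for the FPKM overlapped between siNC and both pairs for each of the 9 members in both conditions, except for Grhl1 with TGF-β. Etv4 was reduced to 20.2% and 48.5% of siNC by the first and second pair without TGF-β and to 19.6% and 29.4% with TGF-β, and Etv5 to 18.3% and 14.2% and to 23.2% and 22.5%. Of the members, Trp63 did not reach 5 FPKM in any of these libraries, which left 5 members in the counts.

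In the absence of TGF-β, Klf5 was at least 2-fold higher for the mean of the pairs, 1 of 5 members, beside 4.5% of 9094 genes. None was at least 2-fold lower, beside 4.57%. Klf5 was at 10.1 FPKM with siNC, 16.8 FPKM with the first and 24.0 FPKM with the second pair. Both pairs lay above siNC, as for 39.1% of tested genes, and the ratios were 1.67 (1.34 to 2.10) and 2.39 (1.93 to 2.98). The mean ratio of 2.03 was close to the threshold, and its log2 value of 1.02 was 0.98 after upper-quartile scaling and 0.95 after adding 1 FPKM, both under 2-fold. With TGF-β, Klf5 was at 11.1, 16.5 and 12.5 FPKM, with both pairs above siNC (40.4% of tested genes) and ratios of 1.48 (1.23 to 1.78) and 1.12 (0.917 to 1.38).

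**Figure D4:**
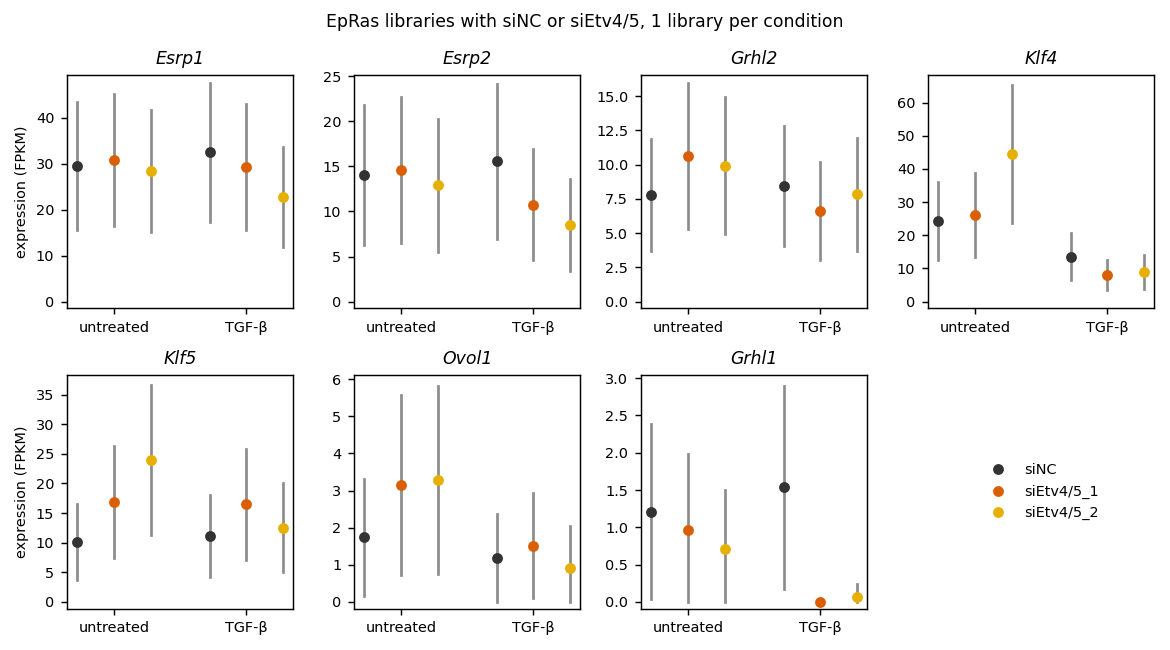
Expression (FPKM, linear axis) of 7 regulators in the 6 EpRas libraries with siNC or siEtv4/5, untreated or with TGF-β. Each point is 1 library and vertical lines are the intervals Cuffdiff gives for its FPKM. Klf4 is lower with TGF-β under each siRNA and Klf5 is highest with the second pair without TGF-β, at 24.0 FPKM.

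Klf4 was at 24.4 FPKM with siNC, 26.2 FPKM with the first and 44.6 FPKM with the second pair without TGF-β. The ratios were 1.07 (0.958 to 1.2) and 1.83 (1.65 to 2.03), apart by counting error, while the spread between libraries was not measured. After TGF-β it stood at 13.5, 8.0 and 8.96 FPKM, and both pairs lay below siNC, with ratios of 0.592 (0.504 to 0.693) and 0.663 (0.565 to 0.776). In each of the 3 transfections Klf4 was lower with TGF-β than without. The decrease was 1.80-fold with siNC, 3.27-fold with the first and 4.97-fold with the second pair, where the ratios were 0.555 (0.489 to 0.629), 0.306 (0.263 to 0.354) and 0.201 (0.174 to 0.232). In untransfected EpRas cells the decrease was 3.33-fold in means of FPKM, near that of the first pair and larger than that with siNC. Why the single siNC libraries differed from those cells was not tested. At least 2-fold lower values with TGF-β were found for 3.18%, 4.2% and 3.87% of tested genes in these 3 transfections.

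The splicing factors stayed near siNC without TGF-β, and Esrp2 lay lower with it by its counting intervals. Untreated, Esrp1 stood at 29.5, 30.7 and 28.4 FPKM (siNC, first and second pair), and treated at 32.5, 29.2 and 22.8 FPKM. Its reads could not be recovered, so no counting interval is given. With TGF-β the ratios of Esrp1 were 0.900 and 0.702, and an interval of 0.451 to 1.42 for the mean ratio of 0.801, made from the Cuffdiff intervals, spanned 1. Untreated, Esrp2 stood at 14.0, 14.6 and 12.9 FPKM, with ratios of 1.04 (0.884 to 1.22) and 0.921 (0.777 to 1.09). After TGF-β the values of 15.6, 10.7 and 8.46 FPKM were below siNC for both pairs, with ratios of 0.691 (0.593 to 0.802) and 0.544 (0.458 to 0.644). Both pairs were below siNC with TGF-β for 35% of tested genes, and the mean of the pairs was at least 2-fold lower for 4.72% and higher for 3.67%, with none of the 5 members in either class. The ratio of Esrp2 with over without TGF-β was 1.11 (0.954 to 1.30) under siNC, and it was below 1 with the first (0.738, 0.628 to 0.866) and the second pair (0.656, 0.545 to 0.789). In untransfected EpRas cells this ratio was 0.709 in means of FPKM, nearer to the pairs than to siNC. Why the single siNC libraries differed from those cells was not tested.

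Grhl2 stood at 7.80, 10.6 and 9.90 FPKM in untreated cells, above siNC for both pairs, with ratios of 1.36 (1.17 to 1.58) and 1.27 (1.09 to 1.48). After TGF-β it stood at 8.45, 6.58 and 7.82 FPKM, with ratios of 0.780 (0.676 to 0.898) and 0.927 (0.806 to 1.06). Its ratio with over without TGF-β was 1.08 (0.933 to 1.26) for siNC, 0.620 (0.538 to 0.715) for the first and 0.790 (0.684 to 0.912) for the second pair. In untransfected EpRas cells the ratio of Grhl2 was 0.693 in means of FPKM, between those of the pairs and unlike siNC.

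The low members were measured on few reads. Ovol1 stood at 1.75, 3.16 and 3.29 FPKM in untreated cells (35, 86 and 84 reads), with ratios of 1.81 (1.21 to 2.76) and 1.89 (1.26 to 2.88), and at 1.18, 1.52 and 0.928 FPKM after TGF-β. It was lower with TGF-β in each transfection, with ratios of 0.673 (0.418 to 1.09) for siNC, 0.481 (0.324 to 0.704) for the first and 0.282 (0.169 to 0.451) for the second pair. In untransfected EpRas cells the ratio of Ovol1 was 0.510 in means of FPKM, also on few reads. Grhl1 was at 1.21, 0.971 and 0.713 FPKM without TGF-β. After TGF-β it stood at 1.54 FPKM for siNC and 0.0667 FPKM for the second pair, and was listed at 0 for the first. Grhl3 and Trp63 did not exceed 0.346 and 0.285 FPKM in any of the 6 libraries.

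The related genes in the siRNA libraries were read by the same threshold of 2-fold for the mean of the pairs. Over all tested genes the shares were 4.5% higher and 4.57% lower without TGF-β, and 3.67% higher and 4.72% lower with it. Among other epithelial regulators Pitx1 was higher without TGF-β (2.93 times siNC), and Rbm47 (0.384) and Elf3 (0.488) were lower with TGF-β. Pitx1 was only at 2.70 FPKM with siNC, against 5.60 and 10.2 FPKM with the pairs. In untransfected EpRas cells its replicates lay far apart, at 11.9 and 5.95 FPKM untreated and 4.33 and 18.4 FPKM with TGF-β. Of 19 epithelial barrier genes none passed without TGF-β, and Prom2 (0.410) and Spint1 (0.485), a protease inhibitor, were lower with it. With TGF-β Prom2 was under 5 FPKM throughout, at 2.84 FPKM with siNC and 0.793 and 1.53 FPKM with the pairs. Of 12 basal genes that reached 5 FPKM with siNC and with a pair, Krt14 (2.76) was higher and 2 were lower without TGF-β, among them Lama3 (0.303), a laminin chain. With TGF-β 3 were lower, among them Lama3 (0.247). Krt17 reached 5 FPKM only with siNC and TGF-β, at 11.5 FPKM, against 4.17 and 2.74 FPKM with the pairs. The Esrp exon host Enah, an actin regulator, was higher in both conditions (2.32 and 3.05), Cd44 was lower without TGF-β (0.390), and the EMT factor Snai1 was higher without TGF-β (2.64). None of 11 tested relatives of the members passed 2-fold in either condition. The fibroblast marker Pdgfrb stood at 1.09 FPKM with siNC and 5.25 and 9.35 FPKM with the pairs in untreated cells, and after treatment at 2.09, 10.1 and 12.0 FPKM. Pdgfra, another such marker, stood at 3.21, 1.76 and 3.67 FPKM in untreated and 6.79, 2.33 and 3.86 FPKM in treated cells. The summed fibroblast markers were 4.47 FPKM with siNC and 7.36 and 13.4 FPKM with the pairs without TGF-β, and 8.93, 12.5 and 16.3 FPKM with it. Their part in the results was not tested.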

How the data were processed

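RNA-seq of 14 mouse libraries was analysed. Poly(A) RNA was captured on beads and strand-specific libraries were read on an Ion Proton. The authors aligned the reads to mm10 with TopHat2 2.0.11, and the deposited FPKM, with an interval for each gene and library, came from Cuffdiff (Cufflinks 2.2.0), in separate runs for untransfected and siRNA libraries. FPKM is relative to the library total, so that a few abundant genes can lower the rest. Genes without an OK status were left out (3 and 2). Genes with a maximum of at least 5 FPKM were tested (9100 and 9094). The 8 untransfected libraries were fitted with limma 3.58.1 (R 4.3.3) on log2(FPKM + 1), 4 groups without a block, two-sided, with Benjamini-Hochberg adjustment and a threshold of 0.05, in a script tested on simulated data. The study calls the 2 libraries of a group biological replicates. The p-values rest on the spread within groups, pooled over all 4 groups and moderated over genes, not on the groups compared alone. That spread was unequal, with a median SD on the log2 scale of 0.0914 in treated EpH4 and 0.214 in treated EpRas cells. The siRNA libraries were compared as ratios with a threshold of 2-fold (SciPy 1.17.1 for intervals). For genes with 1 transcription start, whole reads were recovered from the FPKM steps (within 0.08 of a whole number up to 200 reads), which gives relative, not absolute, depth. Reads were not recovered for Esrp1, nor sought for Grhl1 and Trp63, which have 2 starts. Depth limits the low members, such as Ovol1 with 4 to 14 reads in the untransfected EpRas libraries. Alternatives were the pseudocount, filter, scaling, variance prior, samples in the fit, the replicate block and each library left out, and, for siRNA, each pair alone, a fold of 1.5, an added FPKM and a maximum of 10 FPKM. The members and lists were chosen with earlier results of these data known. Genes named were all members, up to 4 genes past the test per list and comparison with the largest change (3 for siRNA), Etv4 and Etv5, and the 3 nearest profiles. Some genes that this rule names are not reported here.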

Additional observations from a re-analysis of the deposited data

Results flagged for a closer look

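For Klf4, both siRNA pairs lay above siNC without TGF-β and below it with TGF-β. The log2 ratio of the mean of the pairs was 0.54 without and -0.67 with TGF-β, a difference of -1.21, which was not tested (1 library for each condition). Without TGF-β the first pair alone gave 0.10 and the second 0.87. For Grhl2 the pairs likewise lay above siNC without TGF-β (0.39) and below it with TGF-β (-0.23), a difference of -0.62 that was not tested. With TGF-β the counting interval of the second pair's ratio of Grhl2 (0.806 to 1.06) included 1.

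Of 72 tested related genes, TGF-β had a different effect in the 2 lines by the limma interaction test for 3, beside 0.802% of all tested genes. The 72 include genes that reached 5 FPKM in 1 line only, such as Ovol2, Marveld2 and Krt17, whose result in this test is not read. The 3 genes called reached 5 FPKM in both lines. The count over all genes, 73, ran from 11 to 133 with single libraries left out. Krt14 rose in EpH4 (1.2) and fell in EpRas cells (-0.78), a difference of -1.98 ± 0.22 (adjusted p = 0.0127). The luminal keratin Krt7 differed by -1.87 ± 0.30 (adjusted p = 0.0491), with 0.78 (adjusted p = 0.0690) in EpH4 and a decrease of -1.10 (adjusted p = 0.0370) in EpRas cells. Pdgfrb differed by -2.80 ± 0.26 (adjusted p = 0.00636), with a rise of 2.16 in EpH4 and -0.64 (adjusted p = 0.124) in EpRas cells.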

How the results depend on the processing

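Of 296 values of single members under alternatives other than leaving out a library, 286 kept their direction and their side of the threshold or stayed within the counting interval. The fitted interaction of Trp63, given as a value with no test, was 0.43 and became -0.14 with a pseudocount of 0.1 FPKM. Of 240 values with 1 library left out, 212 kept direction and side of the threshold, 21 lost their call and 1 gained one. The rest comprised 5 values that turned around and that of Trp63 with TGF-β in EpRas cells, which went to 0, none of them called in the full fit. Both totals, 296 and 240, include Trp63 between the lines, where it had to differ because it passed the filter only in EpH4 cells. Its unchanged values there say nothing about stability. Klf4 between the lines with TGF-β ran from -0.028 (without the second treated EpRas library) to 0.67 (without the first, then called). With TGF-β in EpH4 cells, Esrp1 ran from -0.098 to 0.41 and Grhl2 from -0.14 to 0.084 (both turned without the first untreated library), and Esrp2 from -0.042 to 0.33 (turned without the second treated library). With TGF-β in EpRas cells, Trp63 ran from -0.26 to 0 (without the second untreated library) and Klf5 from -0.090 (without the second treated library) to 0.21. The cause was not tested.

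The counts of called genes were 1598 and 1935 between the lines without and with TGF-β, 855 and 348 for TGF-β in EpH4 and EpRas cells, and 73 for the interaction. A mean of at least 10 FPKM, which tests fewer genes, gave 880, 1092, 559, 225 and 24. Fitting the EpRas libraries alone gave 45. The interaction count was 117 without a filter and 45 with a variance trend. With single libraries left out, the counts ran from 736 to 2104, 816 to 2370, 242 to 1153, 135 to 407 and 11 to 133. Past 1.5-fold instead of 2-fold, 2425 rather than 825 genes differed in the siRNA libraries without and 2111 rather than 763 with TGF-β.

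The replicate numbers did not pair the samples (correlations of same-numbered deviations between groups from -0.35 to 0.08). With the replicate number as a block the counts were 1121, 1520, 547, 222 and 31, and Klf4 between the untreated lines (adjusted p = 0.0643), Klf4 with TGF-β in EpH4 (0.0533) and Klf5 with TGF-β in EpH4 cells (0.0530) were not called.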
